A study of Mus musculus with 11 samples.

Results

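Hensen's cells of the mouse cochlea at postnatal day 1 (P1) are described here as the cells of the P1 libraries that carry transcripts of Pmch and Fst and lack the limiting levels of 4 other genes. In the deposited units, the natural logarithm (ln) of 1 plus 10000 times a gene's share of the cell's transcripts, a member had Pmch of at least 1.5, Fst above 0, Myo6 below 1.5, Ccer2 below 2.0, Npy below 3.0 and Oc90 below 3.5. The rule was met by 118 of 14043 P1 cells, among 30634 cells of all ages. Transcripts were counted by their unique molecular identifiers (UMIs) in droplet libraries. All animals were wild-type CD1 mice without any treatment, and each library pooled the cochleae of several pups of either sex from a separate collection. The floor of the cochlear duct was kept, and its roof and lateral wall were dissected off, although the other P1 cells outside the hair cells still held transcripts of 7 roof markers, at a sum of 1328 to 1792 UMIs per 1000000. The series holds 11 libraries of untreated embryonic (E14, E16) and postnatal (P1, P7) cochleae, of which the 4 P1 libraries are used here, with the E16 libraries for a comparison of ages.

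Hensen's cells are supporting cells that stand lateral to the outermost row of Deiters' cells, which hold the outer hair cells, and medial to the Claudius cells of the outer sulcus. As the outer border cells of the organ of Corti they are tall cells coupled by gap junctions, and in several mammals they are rich in lipid. Pmch encodes the precursor of melanin-concentrating hormone, a neuropeptide best known from the lateral hypothalamus, and Fst encodes follistatin, a secreted protein that binds activins and several bone morphogenetic proteins (BMPs).

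The genes of the rule chose the cells, so their levels are a description and were not tested. Values are UMIs per 1000000 UMIs of a cell (CPM), averaged over the cells of a group in each library, in the order of replicates 1 to 4. Pmch (GRCm38 chr10:88091072-88092375, plus strand) stood at 2191, 3365, 1692 and 2569 CPM in Hensen's cells and at 6.77, 4.22, 1.57 and 3.52 CPM in all other non-hair cells, which are the cells below the limits of both Myo6 and Ccer2. Fst (chr13:114452290-114458951, minus strand) stood at 1311, 2976, 3734 and 2676 CPM in Hensen's cells, at 423, 1859, 1298 and 873 CPM in Claudius-like cells and at 40.3, 69.7, 50.6 and 46.5 CPM in other non-hair cells. Claudius-like cells are the non-hair cells with Bmp4 of at least 1.5 and no Pmch UMI. Every Hensen's cell had to hold an Fst UMI and the Claudius-like cells did not, so nothing is read from the difference in Fst between them. In both groups the lowest of the 4 libraries was replicate 1. Bmp4 stood at 98.96, 118, 287 and 251 CPM in Hensen's cells and at 1254, 942, 875 and 1096 CPM in Claudius-like cells.

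**Figure D1:**
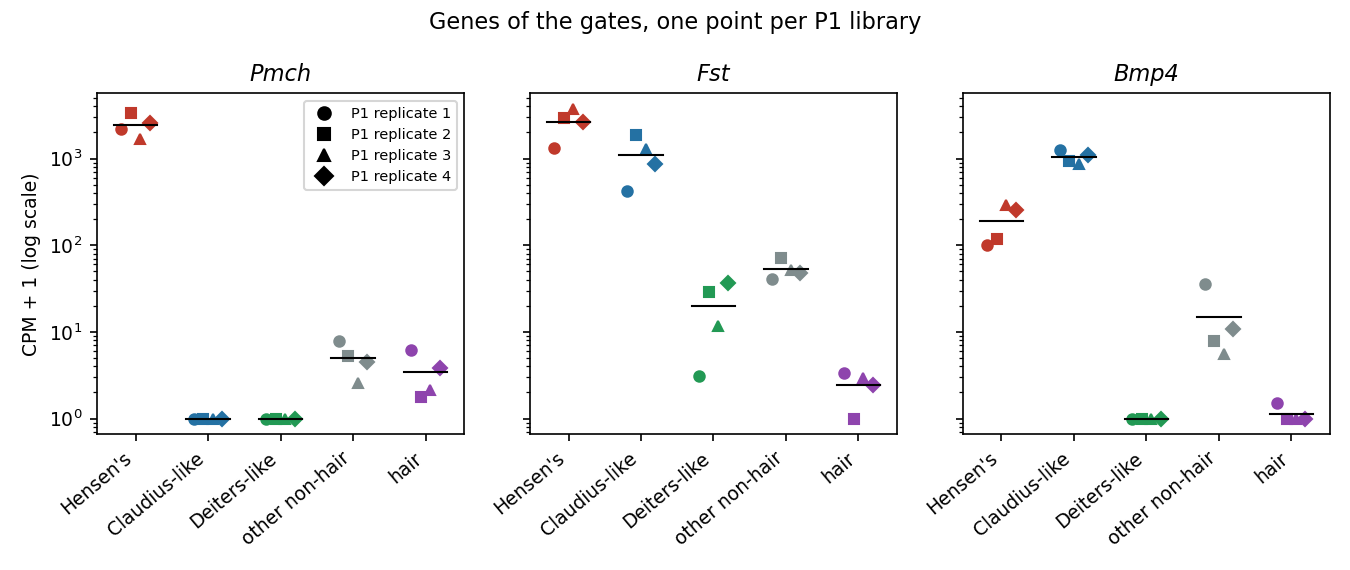
Levels of Pmch, Fst and Bmp4 (CPM + 1, log axis) in 5 groups of P1 cells, with 1 point per library and a bar at the mean. Pmch lies between 1692 and 3365 CPM in Hensen's cells and at 0 in Claudius-like and Deiters-like cells, whose gates require it, and Fst, which the rule required in Hensen's cells alone, is also present in Claudius-like cells.

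The label was checked against markers of the other cell types that the dissection could hold, and no marker of Hensen's cells apart from Pmch and Fst was set. Deiters-like cells, defined by Hes5 of at least 1.5 with UMIs of Lfng and Prox1 and without Pmch, had 5531 to 6812 CPM summed over 10 markers of Deiters' cells, and Hensen's cells had 50.1 to 373 CPM. That list holds the 3 genes that chose the Deiters-like cells. Hes5 stood at 104, 0, 0 and 12.00 CPM and Prox1 at 12.4, 0, 0 and 2.63 CPM in Hensen's cells, and both were at 0 in replicates 2 and 3. The 13 hair cell markers summed to 343 to 557 CPM in Hensen's cells and to 20093 to 31903 CPM in hair cells, with 314 to 463 CPM in other non-hair cells. Roof cell markers summed to 0 to 96.03 CPM, neuronal markers to 7.01 to 23.8 CPM and blood and immune markers to 0 to 25.03 CPM, with Otx2, Tubb3 and Ptprc at 0 in every library. The roof sum leaves out Oc90, which the rule limits and which stood at 144, 376, 165 and 107 CPM in Hensen's cells and at 1102, 529, 162 and 581 CPM in other non-hair cells, and was not lower in Hensen's cells of replicate 3. The 7 glial markers summed to 314 to 1969.7 CPM in Hensen's cells against 152 to 456 in other non-hair cells. Most of that sum was Fabp7, without which, in a reduction chosen after the values were seen, the other 6 summed to 108 to 206 CPM in Hensen's cells and to 127 to 167 CPM in the others, with Pmp22 at 0 in every library of Hensen's cells. The 8 mesenchymal markers summed to 728 to 2702 CPM, all but 0 to 19.9 CPM of which were Dcn and Lum.

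Not every list was low in Hensen's cells. The 5 markers of Claudius and outer sulcus cells other than Fst, of which Gata2 and Bmp4 made up most in Hensen's cells and Bmp4 chose the Claudius-like cells, summed to 827 to 1181 CPM in Hensen's cells, between 1403 to 1989 CPM in Claudius-like and 66.1 to 177 CPM in other non-hair cells, with Slc26a4 at 0. Inner pillar markers summed to 1512 to 2699 CPM against 928 to 1581 CPM in other non-hair and 2442 to 3463 CPM in Deiters-like cells. Inner phalangeal markers summed to 1830.00, 1812, 1188 and 319 CPM in replicates 1 to 4 of Hensen's cells. Other non-hair cells held 1187, 1026, 1079 and 1071 CPM, and the part of single genes in these sums was not separated. Endothelial markers summed to 94.3 to 143 CPM against 43.6 to 81.7 CPM in other non-hair cells, with Cdh5, Kdr and Cldn5 at 0 in Hensen's cells. Interdental and melanocyte markers summed to 8.41 to 74.3 and 0 to 19.9 CPM in Hensen's cells against 482 to 824 and 6.24 to 8.21 CPM in other non-hair cells. The part of these lists in the results was not tested.

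The 4 P1 libraries hold 2179 to 5598 cells and 11829392 to 23523802 UMIs. Hensen's cells were deeper than the other non-hair cells of their library, with medians of 9654.5, 8273, 8325 and 5666.5 UMIs against 5539, 5155, 5553.5 and 3762. They were also deeper than the Deiters-like cells (7209, 5577, 6231.5 and 4582) and the Claudius-like cells (6430, 7747.5, 6895 and 5509.5) of every library. Depth thus moves with all 3 comparisons, and counts from cells thinned to 1500 UMIs and from reference cells at least as deep as the median Hensen's cell are given beside the results. Pairs of P1 libraries shared 5 to 27 cell barcodes. Scrublet, a doublet caller, marked 2 of the 118 Hensen's cells, both of replicate 1, and only 0.143% of the cells of replicate 4, where doublets are thus nearly unscreened. The lowest Pmch values inside the limit were 1.55, 1.57 and 1.59, and the highest outside were 1.498, 1.454 and 1.431 in cells that met all other limits. Of the 118 cells, 1 held a single Pmch UMI and 2 a single Fst UMI.

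The sequence around the start of Pmch is shown because the gene defines these cells, and that of Tulp2 because it was among the genes highest over other non-hair cells and holds the same short motif at this start, while another Tulp2 start (chr7:45513456-45513755) lacks it. Capitals mark 2 motifs. The first is AGATAA, which zinc finger factors of the Gata family bind, and it was searched on both strands, so that its reverse complement is in capitals where the match is on the other strand. The second is TATAAA, the core promoter box, which was searched on the gene's own strand. Both genes are on the plus strand, and each window runs from 250 bases before to 50 bases after the start (RefSeq, GRCm38.p6).
Pmch, chr10:88090822-88091121: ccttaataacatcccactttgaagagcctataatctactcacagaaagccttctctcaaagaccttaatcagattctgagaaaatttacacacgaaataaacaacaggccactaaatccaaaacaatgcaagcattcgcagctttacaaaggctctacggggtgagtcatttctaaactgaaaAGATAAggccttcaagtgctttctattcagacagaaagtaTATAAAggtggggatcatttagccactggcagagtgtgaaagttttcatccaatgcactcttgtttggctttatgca
Tulp2, chr7:45486012-45486311: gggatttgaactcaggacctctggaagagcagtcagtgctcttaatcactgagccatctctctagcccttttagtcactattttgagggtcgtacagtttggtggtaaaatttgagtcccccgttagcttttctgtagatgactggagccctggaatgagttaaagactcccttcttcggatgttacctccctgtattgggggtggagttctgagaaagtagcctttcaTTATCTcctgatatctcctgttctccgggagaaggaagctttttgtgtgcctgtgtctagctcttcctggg
AGATAA or its reverse was found in 11.2% of all 32851 promoter windows of this length, in 7.24% of the 6423 genes tested against other non-hair cells that had a window, and in 33 of the 296 matched genes that were higher in Hensen's cells (11.1%). TATAAA was found in 8.32% of all windows, in 5.04% of the tested genes with a window and in 28 of the 296 matched higher genes (9.46%). The windows of Nupr1, Egfl6, Fabp7, Gata2 and Olfml3 held neither AGATAA nor TATAAA. A GC-rich Smad motif, GGCGCC, was also searched and is not marked in capitals. It was found in 11.9% of all windows, in 26.7% of the tested genes with a window and in 77 of the 296 matched higher genes (26%). A match of letters is a description and not a bound site.

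**Figure D2:**
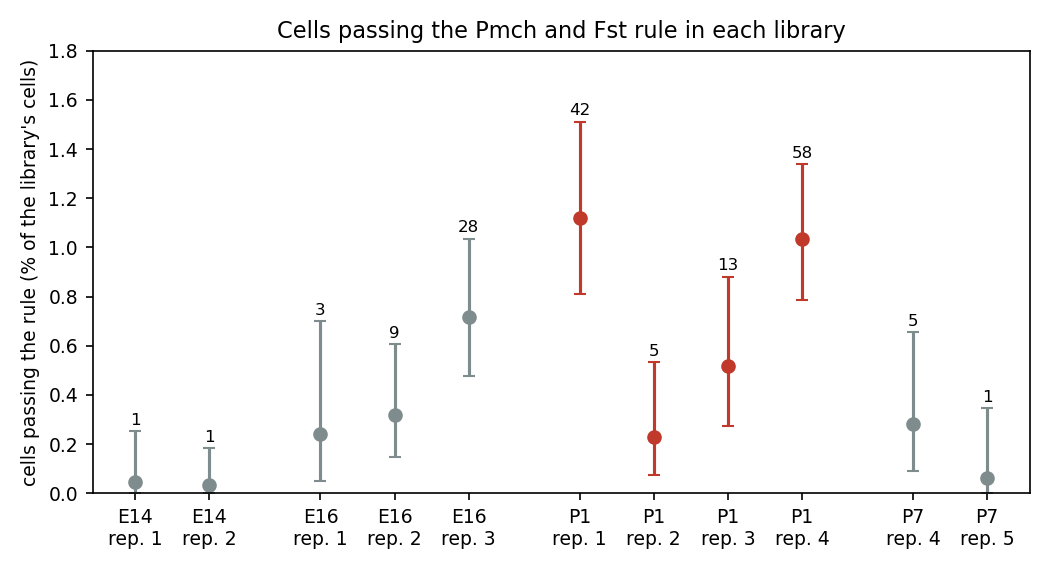
Cells that met the rule, in percent of all cells of each library, with exact 95% binomial intervals and the number of cells above each bar. P1 replicates 1 and 4 lie at 1.12% and 1.04%, above replicate 2 at 0.229%, and E14 and P7 libraries hold 1 to 5 such cells.

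Replicates 1 to 4 of P1 held 42, 5, 13 and 58 Hensen's cells, or 1.12%, 0.229%, 0.516% and 1.04% of all cells. The exact (Clopper-Pearson) 95% intervals ran from 0.809% to 1.51%, from 0.0745% to 0.535%, from 0.275% to 0.881% and from 0.788% to 1.34%, and cover counting error only. The intervals of replicates 1 and 4 overlapped each other and not that of replicate 2, so the share of recovered cells differed between collections of the same age. The same rule found 3, 9 and 28 cells in the E16 libraries, 1 and 1 at E14, and 5 and 1 at P7. Without the limit on Fst the P7 libraries held 40 and 9 cells and the P1 libraries 48, 10, 15 and 69, so most P7 cells with Pmch at the limit lacked an Fst UMI. Over all cells, the P7 libraries had medians of 4510.0 and 4849.5 UMIs per cell, which are not the depths of these Pmch cells. The cause of the missing Fst UMIs was not tested, and the type of these P7 cells was not checked. A share of recovered cells is no count of cells in the tissue.

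Against all other non-hair cells, Hensen's cells of P1 carried more transcripts of Nupr1, Egfl6, Rgs4, Fam159b and Syt6 and fewer of 1500015O10Rik, Crabp1 and Epyc. Egfl6 (GRCm38 chrX:166523007-166585720, minus strand), a secreted protein with EGF repeats, stood at 806, 941, 457 and 550.02 CPM in Hensen's cells and at 26.1, 14.4, 15.6 and 20.8 CPM in the others (log2 difference 4.54 ± 0.23, adjusted p = 9.7e-09). Nupr1 (chr7:126623249-126630861, minus strand), a small nuclear protein induced by cell stress, stood at 805, 1383, 640.02 and 717 CPM against 29.7, 17.6, 17.3 and 13.3 CPM (log2 difference 4.89 ± 0.23, adjusted p = 5.4e-09). Both genes were higher in Hensen's cells of every library with no overlap between the groups. With limma on log2(CPM + 10) and library as a block, 385 of 8357 genes were higher (4.61%) and 565 lower (6.76%), while the median of all genes was -0.12. The counts were 233 and 337 without replicate 3, 253 and 364 without replicate 4, 209 and 349 without the library block, 325 and 590 against the deeper reference cells, and 111 and 329 with cells thinned to 1500 UMIs. Higher genes made up 40.5% of the calls, 63.2% on means of the deposited ln values, 25.2% with thinned cells and 12.1% with no filter on low values (264 higher and 1926 lower). The genes were tested in cells chosen by Pmch and Fst in the same libraries, so an adjusted p does not speak to the choice of the cells. The variance behind it and behind each ± SE is drawn partly from the other genes tested. A gene can thus vary more over the 4 libraries than its ± SE shows.

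By the rule for naming genes, 15 higher genes were named, of which 14 did not overlap between the groups, where 5.21% of all genes tested were higher without overlap. Among genes of signalling and secretion, Rgs4, a regulator of G protein signalling, stood at 143, 280.5, 181 and 545 CPM against 2.198 to 3.84 (log2 difference 4.35 ± 0.33, adjusted p = 5.1e-07). Syt6, a synaptotagmin of the vesicle membrane, stood at 241, 235, 189.9 and 369 CPM against 4.97 to 7.92 (log2 difference 4.01 ± 0.28, adjusted p = 2.7e-07). Serpine2, an inhibitor of serine proteases, stood at 651, 1326, 682 and 1019.8 CPM against 55.5 to 132 (log2 difference 3.32 ± 0.25, adjusted p = 5.1e-07). Rgs4 was highest in replicate 4, Syt6 was also highest there, and Serpine2 was highest in replicate 2. Fam159b, which encodes a transmembrane protein of the shisa family, stood at 1219, 2032, 1322 and 447 CPM against 66.03, 93.1, 72.8 and 22.98 (log2 difference 4.03 ± 0.16, adjusted p = 1.9e-09). Its replicate 4 was the lowest in both groups.

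The enzymes among them were Acp5, the tartrate-resistant acid phosphatase, at 106, 124, 157 and 71.1 CPM against 0.426 to 1.55 (log2 difference 3.47 ± 0.35), Aldh1a1, a retinaldehyde dehydrogenase, at 217, 165, 86.1 and 77.7 CPM against 1.11 to 6.53 (log2 difference 3.42 ± 0.34) and Car13, a cytosolic carbonic anhydrase. Car13 was the most even of the 15 across libraries, at 195, 214, 201 and 181 CPM against 16.1, 11.2, 11.6 and 8.72 CPM (log2 difference 3.25 ± 0.27). Car10, a carbonic anhydrase-like protein without the enzyme's activity, ranged from 29.7 to 213 CPM in Hensen's cells and stayed at 0.279 to 3.06 CPM in the others. Fabp7, a fatty acid-binding protein of radial glia, was the named gene whose groups overlapped, at 1546, 1763, 1003 and 179 CPM in Hensen's cells and at 289, 102, 78.8 and 22.96 CPM in the others (log2 difference 3.10 ± 0.23, adjusted p = 5.1e-07). Hensen's cells of replicate 4 held less Fabp7 than the other cells of replicate 1, although within each library Hensen's cells were higher. The study also places Fabp7 at P1 in the part of Kölliker's organ that borders the organ of Corti. No reference group here isolates those cells, so Fabp7 is not shown to set Hensen's cells apart from them. Tulp2, a tubby-like protein, stood at 251, 554, 359 and 129 CPM against 4.797 to 14.6 CPM and Fbln7, a fibulin, at 121, 230.03, 123 and 59.9 CPM against 2.06 to 3.05 CPM. After thinning to 1500 UMIs, Fbln7 no longer passed the test (limma log2 difference 1.05, adjusted p = 0.31). Olfml3, a secreted olfactomedin-domain protein, and Pcdh17, a protocadherin, complete the 15, with log2 differences of 3.09 ± 0.16 and 3.09 ± 0.32.

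**Figure D3:**
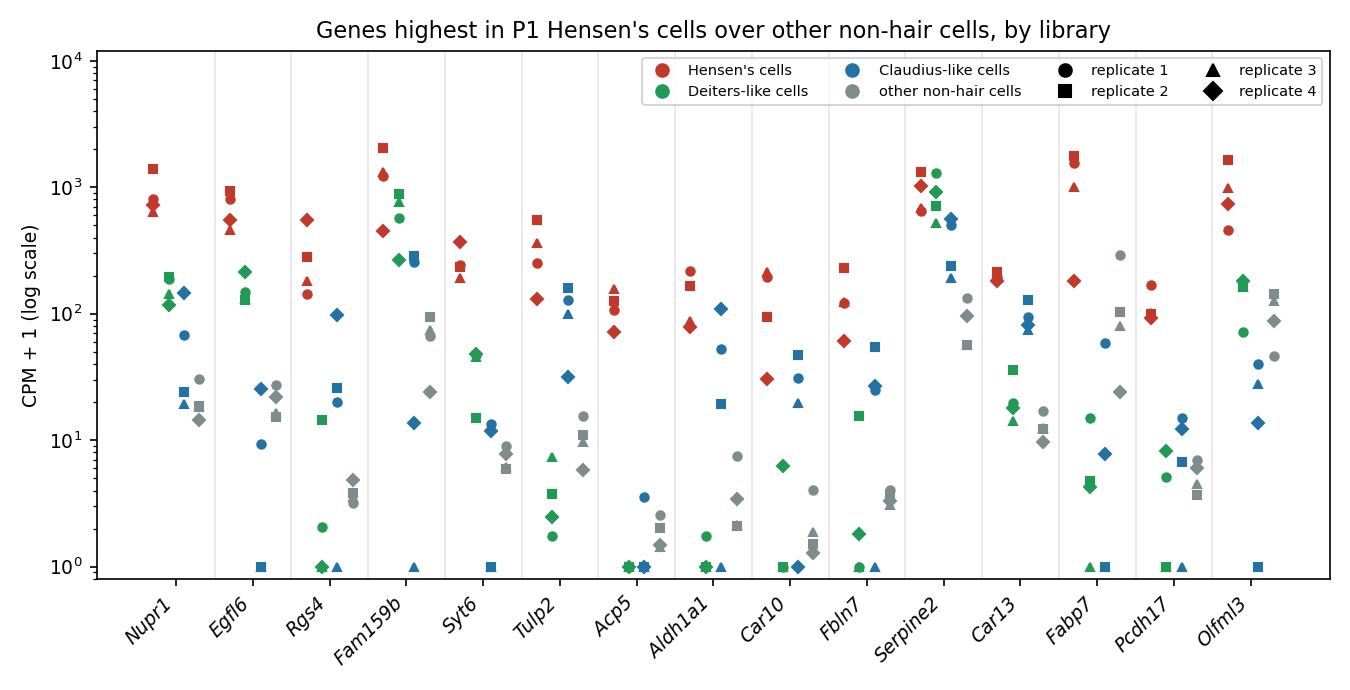
Levels (CPM + 1, log axis) of the 15 named genes higher in P1 Hensen's cells than in other non-hair cells, with 1 point per library for Hensen's, Deiters-like, Claudius-like and other non-hair cells. Hensen's cells sit above the other non-hair cells in all 4 libraries for each gene, and Serpine2 (521 to 1284 CPM) and Fam159b (263 to 887 CPM) are also high in Deiters-like cells.

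Of the genes that were lower, 10 were named, and 7.61% of all genes tested were lower without overlap between the groups. 1500015O10Rik, which encodes the secreted peptide precursor augurin, stood at 672, 24.2, 17.4 and 444 CPM in Hensen's cells and at 8868, 7309, 6683 and 7220.1 CPM in the others (log2 difference -5.84 ± 0.53, adjusted p = 3e-06). Crabp1, a retinoic acid-binding protein, stood at 22.9, 0, 0 and 53.4 CPM against 1028, 1368, 1553 and 642 CPM (log2 difference -5.69 ± 0.46, adjusted p = 1.1e-06). Epyc, a small proteoglycan, stood at 257, 0, 9.29 and 357 CPM against 3516, 3214, 3100.1 and 2582 CPM (log2 difference -5.55 ± 0.62, adjusted p = 2.3e-05). In all 3, Hensen's cells of replicates 1 and 4 held more than those of replicates 2 and 3, a spread that the ± SE does not show in full. Kölliker's organ is the columnar epithelium medial to the organ of Corti. The 8 markers listed for it and the inner sulcus summed to 17374 to 29632 CPM in Hensen's cells. The sum was 25293.5 to 30971.5 CPM in other non-hair, 3934 to 6739 CPM in Claudius-like and 5734 to 7870 CPM in Deiters-like cells. The full list was thus not low in Hensen's cells, where most of its sum was Clu, Tecta and Dcn. Without these 3, in a reduction chosen after the values were seen, the sum was 228 to 783 CPM in Hensen's cells and 4536 to 7719.9 CPM in the others, and its part in the differences was not tested. Tectb, Calb1, Gsn, Sparcl1, Pcolce2, Rgcc and Ebf1 complete the 10 named lower genes, with log2 differences from -5.18 (Sparcl1) to -4.29 (Ebf1).

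Of the 25 genes that head the study's list for these cells, 23 were tested and 23 were higher than in other non-hair cells, where 4.61% of all genes were. The list was chosen by the study on these same libraries, so its count is not independent evidence of a direction. Against Claudius-like cells 18 of the 23 were higher and 1 lower, and against Deiters-like cells 17 were higher and 1 lower. Hs3st1, a heparan sulfate sulfotransferase, was the one lower than in Claudius-like cells (log2 difference -0.95 ± 0.20, at 342, 186, 312 and 289.9 CPM against 686, 412, 467 and 645). Socs2, a suppressor of cytokine signalling, was the one lower than in Deiters-like cells (log2 difference -0.88 ± 0.14, at 1051, 768, 869 and 1137 CPM against 1294, 1900.3, 2001 and 1872), although it was higher than in the other 2 references.

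Claudius-like cells, 83, 12, 9 and 34 in the 4 libraries, are the lateral neighbours of Hensen's cells, and 29 of the 118 Hensen's cells also met the Bmp4 limit. Hensen's cells had far less Apoe, an apolipoprotein, and more of Fabp7, Egfl6, Olfml3 and Tecta. Apoe stood at 43.1, 0, 29.98 and 189 CPM in Hensen's cells and at 9709, 4184, 2917 and 3590.2 CPM in Claudius-like cells (log2 difference -6.65 ± 0.41, adjusted p = 8.1e-10). All 4 libraries of Hensen's cells lay under the lowest Claudius-like library, with replicate 4 the highest of them. With limma, 194 of 8490 genes were higher (2.29%) and 203 lower (2.39%), and the median of all genes was -0.14. The counts were 122 and 121 without replicate 3, 138 and 130 without replicate 4, 104 and 113 without the library block, 109 and 97 against the deeper reference cells, and 20 and 10 with cells thinned to 1500 UMIs.

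Among the named genes that were higher than in Claudius-like cells, Egfl6 stood at 8.34, 0, 0 and 24.6 CPM in Claudius-like cells (log2 difference 5.40 ± 0.38, adjusted p = 5.9e-09), Olfml3 at 38.7, 0, 26.6 and 12.8 CPM (log2 difference 5.11 ± 0.43, adjusted p = 7.4e-08) and Fabp7 at 57.7, 0, 0 and 6.83 CPM (log2 difference 5.54 ± 0.46, adjusted p = 7.4e-08), against the levels of Hensen's cells given above or, for Olfml3, 460.3, 1651, 984 and 729.6 CPM. Tecta, which encodes alpha-tectorin of the tectorial membrane, stood at 1016, 1728, 1049 and 1062 CPM in Hensen's cells and at 167, 18.6, 40.05 and 128 CPM in Claudius-like cells (log2 difference 3.96 ± 0.36, adjusted p = 2.4e-07). The other non-hair cells lay at 969.9, 1354, 1344 and 1029.6 CPM, and the difference of Hensen's cells from them did not pass (limma log2 difference 0.03 ± 0.12, adjusted p = 0.92). Syt6, Fam159b, Nupr1 and Acp5 were again among the 15 named. The others were Rassf9, a Ras association domain protein, at 364, 386, 236 and 329 against 20.5, 7.84, 35.1 and 24.1 CPM, Col26a1, a collagen, at 71.6 to 303 against 0 to 9.24 CPM, Lsamp, an adhesion molecule, at 122 to 253 against 0 to 11.2 CPM, and Loxl1, an enzyme that crosslinks elastin, at 134, 189, 138 and 129 against 14.5, 0, 8.27 and 18.3 CPM. Il33, an alarmin cytokine, Isg15, an interferon-induced ubiquitin-like protein, and Fxyd7, a regulator of the sodium pump, lay at 74.3 to 226, 34.3 to 153 and 75.1 to 242 CPM in Hensen's cells. In Claudius-like cells the same 3 genes lay at 0 to 11.6, 0 to 0.59 and 0 to 2.904 CPM.

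The named genes that were lower than in Claudius-like cells included the matrix genes Fbln2 and Npnt. Fbln2, a fibulin, stood at 65.1, 116, 63.3 and 223 CPM in Hensen's cells and at 1005, 1474, 933 and 1987 CPM in Claudius-like cells (log2 difference -3.53 ± 0.21, adjusted p = 4e-10). Npnt, which encodes nephronectin, an integrin ligand, stood at 31.1, 50.3, 41.9 and 147 CPM against 882, 724, 569 and 1182 CPM (log2 difference -3.61 ± 0.26, adjusted p = 1.2e-08). Serpina3a, a serpin, stood at 22.2, 0, 0 and 17.3 CPM against 745, 656, 325 and 382 CPM (log2 difference -4.88 ± 0.38, adjusted p = 2.2e-08). None of these 3 overlapped between the groups, and replicate 4 held the highest Fbln2 and Npnt of both groups. Fbxo2, a ubiquitin ligase subunit that binds glycoproteins and is abundant in the cochlear epithelium, stood at 526, 105, 643 and 498 CPM against 6727, 6655, 4929.7 and 3634 CPM (log2 difference -3.82 ± 0.29, adjusted p = 2.2e-08). The H19 noncoding RNA, Col9a1, Lgals1, Cthrc1 and Rasgef1b complete the 10, with log2 differences of -3.66, -3.48, -3.43, -3.45 and -3.66. When cells were thinned to 1500 UMIs, 14 of the 25 named genes lost their call in this comparison and kept their direction. Among them, the log2 difference of Fbxo2 was -4.61 when thinned and -3.82 before, that of Fxyd7 4.13 and 3.42, that of Acp5 2.56 and 3.51, that of Cthrc1 -2.41 and -3.45 and that of Loxl1 0.93 and 3.05. The smallest groups held 9 Claudius-like and 5 Hensen's cells.

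Deiters-like cells numbered 90, 25, 44 and 136 in the 4 libraries. Their gate does not separate the rows of Deiters' cells, of which only the outermost stands next to Hensen's cells. Hensen's cells differed from the Deiters-like cells by more Gata2, Igf1 and Fabp7 and by less Igfbp3, Tectb and S100a1. Gata2 (GRCm38 chr6:88193891-88207032, plus strand), a zinc finger transcription factor, stood at 771, 709, 831 and 911 CPM in Hensen's cells and at 13.7, 21.3, 5.15 and 31.8 CPM in Deiters-like cells (log2 difference 4.96 ± 0.26, adjusted p = 4.4e-11). Igf1 (chr10:87858265-87937042, plus strand), insulin-like growth factor 1, stood at 483, 1205, 578 and 1169 CPM against 25.6, 0, 25.4 and 23.00 CPM (log2 difference 4.98 ± 0.36, adjusted p = 4e-09). With limma, 427 of 8433 genes were higher (5.06%) and 621 lower (7.36%), and the median of all genes was -0.17. The counts were 284 and 409 without replicate 4, 242 and 357 without the library block, 269 and 294 against the deeper reference cells, and 102 and 157 with cells thinned to 1500 UMIs. On means of the deposited ln values they were 498 and 490.

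Bmp4 had no UMI in Deiters-like cells of any library and stood at 98.96, 118, 287 and 251 CPM in Hensen's cells (limma adjusted p = 2.7e-07). The mean of these libraries was 111-fold above a floor of 3 UMIs over all Deiters-like cells. That floor bounds the Deiters-like side only and leaves out the spread of Hensen's cells. Acp5 likewise had no UMI in Deiters-like cells, and its mean in Hensen's cells was 67.1-fold above the same floor. With cells thinned to 1500 UMIs, Acp5 no longer passed (limma log2 difference 2.56, adjusted p = 0.071). Col18a1, the source of endostatin in the basement membrane, stood at 388, 837, 722 and 622 CPM against 22.4, 46.96, 21.6 and 27.95 CPM (log2 difference 4.03 ± 0.24, adjusted p = 2.2e-10). Lum, the proteoglycan lumican, stood at 2078, 1057, 433 and 1212 CPM against 203, 39.6, 31.6 and 135 CPM (log2 difference 3.55 ± 0.21, adjusted p = 2.2e-10). Lum was not higher than in the other references, and lay at 1957, 1051, 951 and 2347 CPM in other non-hair cells and at 3085, 1872, 1604 and 3199.98 CPM in Claudius-like cells. Fabp7, Tulp2, Rgs4, Aldh1a1, Il33 and Fxyd7 were also named here, with log2 differences of 5.88, 4.54, 4.37, 3.73, 3.66 and 3.54. Lurap1l, Rcsd1 and Ier3, an immediate early gene, complete the 15, at 304, 326, 193 and 189, 169.7, 137, 124 and 255 and 142, 225, 269.95 and 149.7 CPM in Hensen's cells.

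Igfbp3, which binds insulin-like growth factors, stood at 58.9, 25.2, 0 and 3.28 CPM in Hensen's cells and at 1136, 1852, 1844 and 942 CPM in Deiters-like cells (log2 difference -5.87 ± 0.35, adjusted p = 2.2e-10). S100a1, a calcium-binding protein, stood at 395, 50.1, 222 and 95.03 CPM against 6909, 5474, 5186 and 2490.3 CPM (log2 difference -4.92 ± 0.24, adjusted p = 2.2e-11). Tectb, which encodes beta-tectorin, stood at 384, 24.2, 8.56 and 23.5 CPM against 4245, 3028, 4090.4 and 1789 CPM (log2 difference -5.86 ± 0.39, adjusted p = 1e-09). All 3 were lower in every library, and replicate 1 held the highest level of each among the libraries of Hensen's cells. Igfbpl1 had no UMI in Hensen's cells of any library and stood at 484, 236, 203 and 191 CPM in Deiters-like cells. The mean of these libraries was 80.1-fold above a floor of 3 UMIs over all Hensen's cells. Fgfr3, a fibroblast growth factor receptor of pillar and Deiters' cells, stood at 36.99, 0, 0 and 4.02 CPM against 391, 237, 338 and 306 CPM. Fzd9, Nrcam, Ebf1, Rab3b and 4930523C07Rik complete the 10, with log2 differences from -5.09 (4930523C07Rik) to -4.37 (Rab3b). The study's list for the outermost row of Deiters' cells, also chosen on these libraries, gave 9 higher and 10 lower of 24 (median -0.69), 5 higher and 3 lower of 19 (median 0.36) and 0 higher and 16 lower of 23 (median -2.87) against other non-hair, Claudius-like and Deiters-like cells. Its list for the inner 2 rows gave 6 higher and 12 lower of 24 (median -0.78), 4 higher and 5 lower of 20 (median 0.42) and 1 higher and 20 lower of 23 (median -3.42) in the same order, the gene higher than in Deiters-like cells being Fam159b (log2 difference 0.95 ± 0.13). The Deiters-like cells were chosen by genes of these cells, and 7.36% of all genes were lower than in them.

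**Figure D4:**
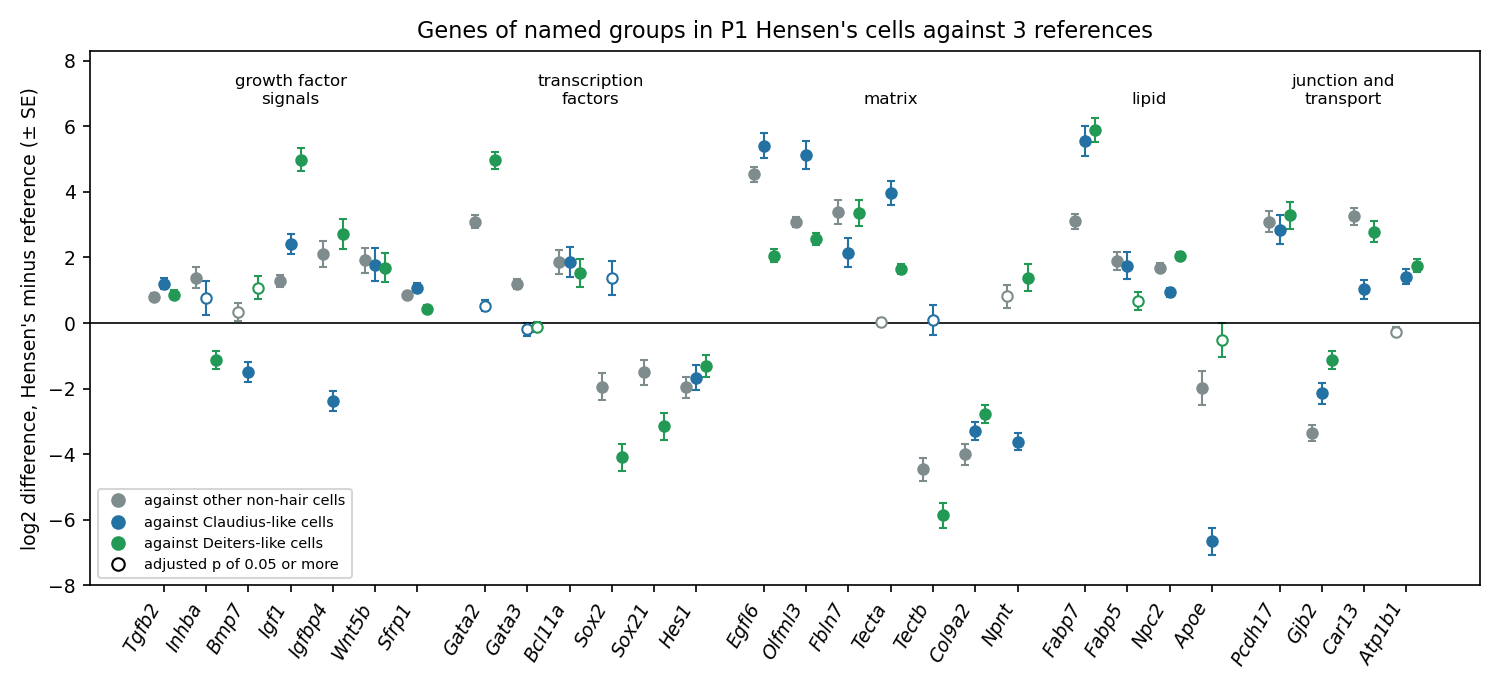
Log2 differences (± SE, limma on 4 libraries) of selected genes of the described groups between P1 Hensen's cells and other non-hair, Claudius-like and Deiters-like cells, with open points for an adjusted p of 0.05 or more and no point for genes under the filter on low values. Tgfb2, Sfrp1, Igf1, Bcl11a, Egfl6, Olfml3, Fbln7, Fabp7 and Pcdh17 lie above 0 and Col9a2, Gjb2 and Hes1 below 0 in all 3 comparisons.

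The 3 comparisons share the same Hensen's cell profiles, so the values below stand side by side and are no independent repeats. Several lists hold genes that also head the study's list for these cells, which was chosen on these libraries. Among them are Id4, Gata2, Egfl6, Olfml3, Itih5, Syt6, Fabp7, Npc2, Pla2g12a, Eno1, Mgst1 and Nupr1, so their calls are not independent evidence. Counts are given as genes higher and lower in Hensen's cells of the genes tested, with the median log2 difference of the list, to be read beside the medians of -0.12, -0.14 and -0.17 over all genes. The shares of all genes called higher and lower were 4.61% and 6.76% against other non-hair, 2.29% and 2.39% against Claudius-like and 5.06% and 7.36% against Deiters-like cells, so that in a list of about 20 genes a single call in 1 direction is near the share over all genes. Among ligands of the BMP, activin and TGF-beta family, Tgfb2 was higher in Hensen's cells against each reference, at 1532, 1126, 1409 and 1236 CPM against 709 to 818 CPM in other non-hair, 348 to 802 CPM in Claudius-like and 546 to 999 CPM in Deiters-like cells (log2 differences 0.78 ± 0.12, 1.20 ± 0.17 and 0.86 ± 0.14). Of the ligands tested, 3 higher and 0 lower of 5 (median 0.78) passed against other non-hair cells, 1 higher and 1 lower of 6 (median -0.47) against Claudius-like and 2 higher and 2 lower of 6 (median 0.23) against Deiters-like cells. Inhba, the activin A subunit, stood at 68.6, 71.5, 41.1 and 77.4 CPM, higher than in other non-hair cells (1.38 ± 0.32) and lower than in Deiters-like cells (-1.13 ± 0.27). Bmp7 was lower than in Claudius-like cells (-1.496 ± 0.31). Of 9 receptors and Smads tested, 0 passed against other non-hair and Claudius-like cells, and 1, Tgfbr1, was lower than in Deiters-like cells (-2.54 ± 0.39), all by limma. At an unadjusted p under 0.05, limma passed 1968, 1397 and 2077 of all genes in the 3 comparisons. On simulated data, the comparisons with other non-hair, Claudius-like and Deiters-like cells found 27%, 16% and 32% of changes of 1 in log2. They found 95.96%, 80% and 87% of changes of 2. A gene that did not pass is thus not shown to be equal between the groups. In this and the lists that follow, counts are against other non-hair, Claudius-like and Deiters-like cells, in that order. BMP targets and inhibitory Smads gave 1 higher and 0 lower of 8 (median 0.43), 2 higher and 1 lower of 10 (median -0.54) and 0 higher and 2 lower of 8 (median 0.23), Smad6 being lower than in Claudius-like cells and Hey1 and Id3 lower than in Deiters-like cells. Id4, an inhibitor of basic helix-loop-helix factors, was higher than in other non-hair (1.75 ± 0.17) and Claudius-like cells (1.26 ± 0.20), at 1281, 540.3, 704 and 1125 CPM. The BMP and activin antagonists beside Fst gave 0 higher and 3 lower of 8 (median -0.31), 1 higher and 1 lower of 7 (median -0.37) and 3 higher and 0 lower of 6 (median -0.14) in the same order.

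Genes of the Notch pathway were lower or did not pass, with the exception of Hey1. Hes1 was lower against each reference, at 177, 65.4, 271 and 436 CPM (log2 differences -1.96 ± 0.32, -1.66 ± 0.38 and -1.31 ± 0.34 against other non-hair, Claudius-like and Deiters-like cells). Deiters-like cells were chosen by Hes5, a Notch target, and Lfng, a modifier of Notch, so that choice partly fixes the direction of the pathway against them. Of the Notch targets tested, 0 higher and 3 lower of 6 (median -1.69), 1 higher and 1 lower of 5 (median -0.17) and 0 higher and 5 lower of 6 (median -1.73) passed in that order, Hey1 being higher than in Claudius-like (1.58 ± 0.32) and lower than in Deiters-like cells (-1.33 ± 0.24). Notch ligands, receptors and Fringes gave 0 higher and 2 lower of 5 (median -0.54), 0 higher and 1 lower of 4 (median 0.17) and 0 higher and 3 lower of 5 (median -1.20). Jag1, a Notch ligand, was lower than in other non-hair (-0.95 ± 0.29) and Deiters-like cells (-2.12 ± 0.28). Of FGF ligands and receptors, 0 higher and 3 lower of 4 (median -1.49), 0 higher and 1 lower of 3 (median -0.96) and 0 higher and 4 lower of 5 (median -2.82) passed, none of them upward in any of the 3. FGF feedback and target genes gave 0 higher and 1 lower of 6 (median 0.50), 0 higher and 2 lower of 6 (median -0.93) and 0 higher and 1 lower of 7 (median -0.42).

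Of Wnt ligands and receptors, 1 higher and 4 lower of 18 (median -0.21), 1 higher and 0 lower of 18 (median 0.15) and 1 higher and 4 lower of 17 (median 0.01) passed, the higher one being Wnt5b each time, at 29.9, 47.7, 34.97 and 17.1 CPM in Hensen's cells and at 0.486 to 1.22 CPM in other non-hair cells (log2 difference 1.92 ± 0.38, adjusted p = 0.0033). Wnt antagonists and feedback genes gave 2 higher and 3 lower of 7 (median -0.21), 1 higher and 0 lower of 7 (median -0.15) and 1 higher and 2 lower of 8 (median -0.66). Sfrp1, a secreted Frizzled-related protein, was higher against each reference, at 1501, 2498, 2569.9 and 2149 CPM (0.84 ± 0.11, 1.08 ± 0.14 and 0.44 ± 0.11), and Dkk3 was lower than in other non-hair (-3.08 ± 0.25) and Deiters-like cells (-1.48 ± 0.35). Lgr5, a Wnt pathway receptor of supporting cells, was lower than in Deiters-like cells (-2.32 ± 0.42). The insulin-like growth factor list gave 2 higher and 3 lower of 12 (median -0.54), 1 higher and 5 lower of 11 (median -0.64) and 3 higher and 4 lower of 12 (median 0.19), and H19, Igfbp4, Igf1r, Grb10 and Igfbp5 were lower than in Claudius-like cells. Igf1 was higher in all 3 comparisons (1.28 ± 0.18, 2.41 ± 0.31 and 4.98 ± 0.36). Igfbp4 differed in sign between the references, at 90.2, 25.03, 201 and 139.6 CPM in Hensen's cells against 9.12 to 25.97 CPM in other non-hair and 385 to 647 CPM in Claudius-like cells (2.11 ± 0.40 and -2.38 ± 0.30).

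Among transcription factors, Gata2 was higher than in other non-hair cells (log2 difference 3.08 ± 0.20, adjusted p = 1.2e-07), and did not pass against Claudius-like cells, which held 524, 424, 537 and 792 CPM (log2 difference 0.53 ± 0.17, adjusted p = 0.085). Gata3, its paralogue with a role throughout the inner ear, stood at 513, 505, 462 and 652 CPM and was higher than in other non-hair cells only (1.18 ± 0.15), with adjusted p of 0.68 and 0.71 against the other 2. Bcl11a was higher against all 3, at 164, 73.4, 114 and 33.3 CPM (1.85 ± 0.37, 1.86 ± 0.45 and 1.53 ± 0.43). Sox2, a factor of prosensory and supporting cells, stood at 65.1, 0, 15.9 and 17.4 CPM in Hensen's cells and at 345, 669, 538 and 335 CPM in Deiters-like cells (log2 difference -4.10 ± 0.40, adjusted p = 2.5e-07). Of the 47 listed factors, 5 higher and 6 lower of 22 (median -0.66), 1 higher and 0 lower of 22 (median -0.20) and 2 higher and 11 lower of 23 (median -0.80) tested passed against other non-hair, Claudius-like and Deiters-like cells.

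Matrix genes of the duct differed in both directions. Egfl6, Olfml3, Fbln7 and Col18a1 were higher against each reference, and Col9a2, a cartilage-type collagen of the tectorial membrane, was lower, at 273, 50.3, 57.8 and 222 CPM against 1683 to 2250.3, 957 to 1529 and 755 to 915 CPM. Of the matrix genes, 7 higher and 11 lower of 28 (median -0.26), 5 higher and 6 lower of 27 (median 0.10) and 10 higher and 7 lower of 29 (median -0.10) tested passed. Connexins and junction genes gave 5 higher and 7 lower of 24 (median 0.03), 2 higher and 3 lower of 22 (median 0.01) and 4 higher and 4 lower of 22 (median -0.15). Gjb2 and Gjb6, the cochlear connexins 26 and 30, were both lower than in other non-hair cells, Gjb2 at 144, 48.4, 40.3 and 81.8 CPM against 756, 765, 839 and 882 CPM (log2 difference -3.35 ± 0.23, adjusted p = 3.2e-07) and Gjb6 at 8.16, 0, 0 and 9.36 CPM against 113, 86.4, 127 and 229 CPM (log2 difference -3.36 ± 0.33, adjusted p = 5.9e-06). Gjb2 was also lower than in Claudius-like (-2.14 ± 0.32) and Deiters-like cells (-1.12 ± 0.27). Transport genes gave 3 higher and 3 lower of 16 (median -0.29), 3 higher and 0 lower of 14 (median 0.50) and 4 higher and 2 lower of 16 (median -0.25). Slc12a2, the sodium, potassium and chloride cotransporter, stood at 22.2, 0, 0 and 45.9 CPM against 249, 358, 381 and 436 CPM in other non-hair cells (log2 difference -4.12 ± 0.38, adjusted p = 3e-06). Atp1b1, a subunit of the sodium pump, was higher than in Claudius-like (1.42 ± 0.23) and Deiters-like cells (1.75 ± 0.19), at 811, 472, 635 and 456 CPM.

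Of the lipid genes, 5 higher and 2 lower of 24 (median 0.18), 4 higher and 1 lower of 24 (median 0.10) and 3 higher and 2 lower of 25 (median -0.33) tested passed, where the shares called higher over all genes were 4.61%, 2.29% and 5.06%. Those higher against each reference were Fabp7, Npc2, a lysosomal cholesterol carrier (1.69 ± 0.12, 0.94 ± 0.14 and 2.04 ± 0.13), and Pla2g12a, a secreted phospholipase. These genes are also on the study's list for these cells, so the counts of lipid genes are not independent evidence. Fabp5 stood at 151, 123, 147 and 68.04 CPM and was higher than in other non-hair (1.89 ± 0.27) and Claudius-like cells (1.75 ± 0.42). Pcsk1 and Pcsk2, the convertases of neuroendocrine granules, and Mchr1, the receptor of melanin-concentrating hormone, had 0 UMIs in Hensen's cells of all libraries, which allows up to 3.47 CPM over the group (3 UMIs, counting error only). Of the processing and granule genes, 1 higher and 3 lower of 12 (median -0.26), 2 higher and 0 lower of 11 (median 0.46) and 2 higher and 1 lower of 13 (median -0.16) tested passed, Syt6 being higher in each. Mchr1 and a set of other neuropeptides gave 1 higher and 0 lower of 3 (median 1.21), 0 higher and 0 lower of 3 (median 0.64) and 0 higher and 1 lower of 4 (median 0.94), those called being the peptides Grp (higher) and Nmb (lower). Cpe, carboxypeptidase E, was lower than in other non-hair cells (-2.69 ± 0.36). Pcsk6 was higher than in Claudius-like (1.801 ± 0.47) and Deiters-like cells (1.53 ± 0.37), at 50.4, 75.1, 77.7 and 123 CPM.

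Among antioxidant and glutathione genes, 7 higher and 1 lower of 20 (median 0.22), 5 higher and 0 lower of 21 (median 0.35) and 6 higher and 4 lower of 21 (median 0.19) tested passed, with Gpx4, the lipid peroxide reductase, at 399.7, 1123, 1087 and 809.5 CPM against 250.04, 429.98, 445 and 388 CPM in other non-hair cells (log2 difference 1.08 ± 0.14, adjusted p = 0.00011). Gsta4, Gstm5 and Mgst1 were higher against each reference. Glycolysis gave 2 higher and 0 lower of 15 (median 0.02), 1 higher and 0 lower of 14 (median -0.17) and 0 higher and 2 lower of 15 (median -0.11). Eno1, at 902, 1493, 1512 and 1449 CPM, and Pkm were higher than in other non-hair cells (2.04 ± 0.12 and 0.41 ± 0.12). Cell cycle inhibitors and cyclins gave 1 higher and 1 lower of 8 (median 0.56), 0 higher and 2 lower of 8 (median -0.10) and 3 higher and 2 lower of 8 (median -0.10). Cdkn1c, a cyclin-dependent kinase inhibitor, was lower against each reference, at 89.5, 48.4, 37.1 and 53.2 CPM against 1849, 1271, 974 and 583 CPM in other non-hair cells (log2 difference -4.07 ± 0.20, adjusted p = 9.7e-09). Ccnd1 was lower than in Claudius-like (-2.36 ± 0.34) and higher than in Deiters-like cells (1.67 ± 0.51). Immediate early and dissociation stress genes gave 1 higher and 10 lower of 20 (median -0.67), 0 higher and 7 lower of 20 (median -0.68) and 3 higher and 3 lower of 19 (median 0.17). Fos, which responds to the handling of cells, was lower than in other non-hair and Claudius-like cells (-1.03 ± 0.25 and -1.66 ± 0.37). The integrated stress response list gave 1 higher and 4 lower of 16 (median -0.44), 5 higher and 1 lower of 17 (median -0.14) and 5 higher and 1 lower of 16 (median 0.05). Those higher against Claudius-like cells were Nupr1, Sdf2l1, Calr, Manf and Hspa5, and those higher against Deiters-like cells were Nupr1, Sdf2l1, Hsp90b1, Calr and Manf, most of them chaperones of the endoplasmic reticulum. Nupr1 was higher in each comparison and Atf4, a central factor of that response, was lower in each (-0.87 ± 0.17, -1.22 ± 0.24 and -0.81 ± 0.21). Keratins and cytoskeleton gave 3 higher and 7 lower of 27 (median -0.18), 5 higher and 7 lower of 27 (median 0.04) and 7 higher and 10 lower of 27 (median -0.33), with Krt8 lower and Anxa2 higher in all 3. Retinoic acid genes gave 1 higher and 4 lower of 10 (median -0.43), 1 higher and 1 lower of 9 (median -1.03) and 2 higher and 2 lower of 8 (median -0.47), and guidance genes 2 higher and 6 lower of 22 (median -0.31), 0 higher and 0 lower of 18 (median -0.33) and 1 higher and 6 lower of 18 (median -0.18).

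The 118 cells varied among themselves. Pmch ran from 831 to 3089.5 CPM between the lower and upper quartiles of single cells, with a median of 1824 and a highest value of 11741 CPM. At least 1 UMI was found in 113 of the 118 cells for Gata2, in 105 for Egfl6, in 101 for Fam159b, in 79 for Nupr1, in 75 for Fabp7 and in 38 for Acp5. After every cell was thinned to 1500 UMIs, Egfl6 was found in 52.5% of Hensen's cells, 19.3% of Deiters-like cells and 0.207% of hair cells, taken as the background. Unthinned, the shares were 88.98%, 42.4% and 1.45%, at median depths of 6690.5, 5793.0 and 6728.0 UMIs. For Gata2 the thinned shares were 62.7%, 1.36% and 0.932%, and 54.4% in Claudius-like cells. For Olfml3 the hair cells were no blank, since 61.5% of them held a UMI.

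Bmp4 was uneven among the Hensen's cells. A UMI of Bmp4 was found in 61 of the 118 cells, and 4, 1, 4 and 20 cells of replicates 1 to 4 reached the limit that defines Claudius-like cells. In replicate 4, the 20 cells at the limit and the 38 below it held 2467 and 2622 CPM of Pmch, 619 and 514 CPM of Egfl6 and 888 and 923 CPM of Gata2. The same cells held 433 and 60.9 CPM of Apoe and 1025 and 219.7 CPM of Fbxo2, both of which were lower in Hensen's than in Claudius-like cells. In replicate 3, with 4 and 9 cells, Apoe stood at 97.4 and 0 CPM and Fbxo2 at 1081 and 448 CPM. Replicate 1, with 4 and 38 cells, ran the other way, at 25.7 and 44.9 CPM for Apoe and 416 and 537 CPM for Fbxo2. The cells of 1 library are not replicates, and no test was made.

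At E16, replicates 2 and 3 had 9 and 28 cells that met the rule, and replicate 1 had too few for a profile. The E16 libraries took no part in naming the P1 genes. All 15 genes named as higher at P1 were also higher than in other non-hair cells in both E16 libraries, where 19.8% of all 8111 genes tested at both ages were. Of the 379 genes called higher at P1 that were tested at both ages, 272 (71.8%) were higher in both E16 libraries and 17 (4.49%) lower in both. Of the 557 called lower, 451 (81.0%) were lower in both, beside 39.3% of all genes. Nupr1 stood at 368 and 509 CPM in the E16 cells, Egfl6 at 179 and 349.8 CPM, Fabp7 at 1427 and 602 CPM and Gata2 at 921 and 421 CPM. Fbln7 was the least different of the 15 at E16, at 11.8 and 8.71 CPM. With 1 UMI over the pooled cells at 21.8 and 9.23 CPM in replicates 2 and 3, its sign at E16 rests on values near the floor.

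**Figure D5:**
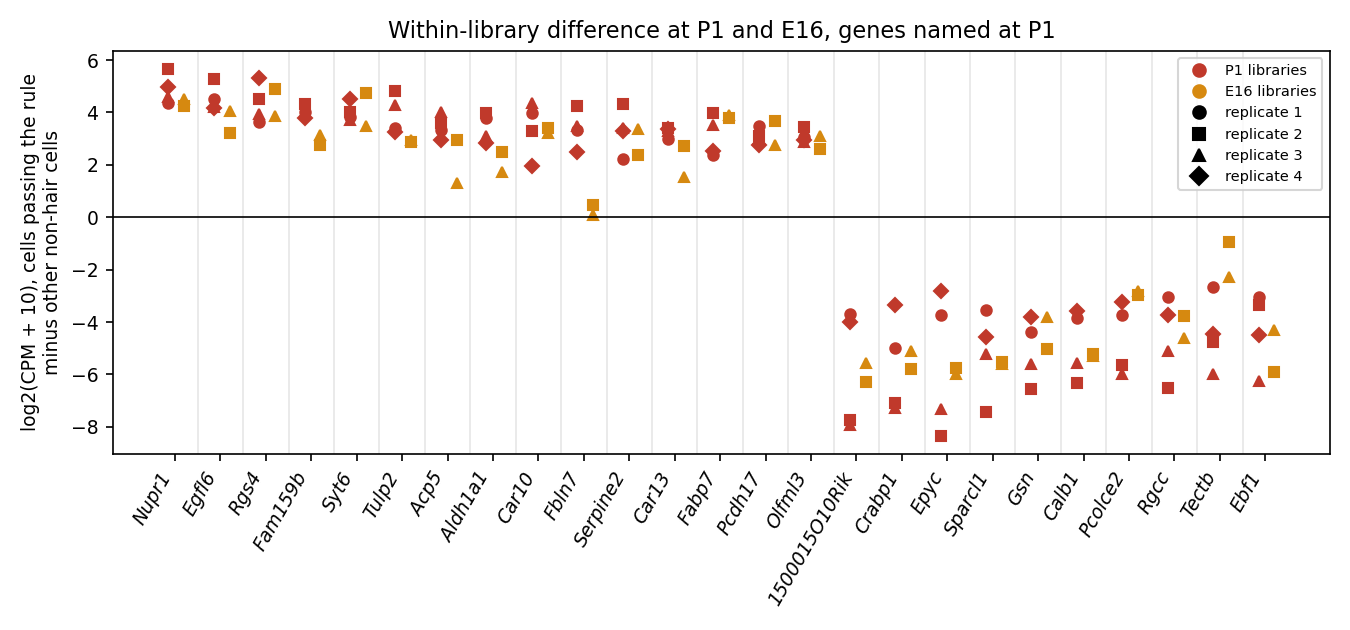
Difference of log2(CPM + 10) between cells that met the rule and other non-hair cells of the same library, for the 25 genes named at P1, with 4 P1 and 2 E16 libraries. The 15 higher genes lie above 0 and the 10 lower genes below 0 in every library of both ages, with Fbln7 nearest to 0 at E16 (0.09 and 0.49).

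A test of the change with age asked whether the difference to other non-hair cells was larger or smaller at P1 than at E16. With limma on the 4 P1 and 2 E16 differences, 0 of 8434 genes were larger at P1 (0%) and 3 smaller (0.0356%), while 783 had an unadjusted p under 0.05. Manf, a secreted protein of the endoplasmic reticulum stress response, differed from the other non-hair cells by 1.23 in log2 at E16 and by -0.28 at P1 (change -1.51 ± 0.26, adjusted p = 0.029 by limma). Its level in the cells that met the rule was 1567 and 1543 CPM at E16 and 725, 1009, 858 and 449 CPM at P1. Itm2a, a membrane protein, changed by -2.12 ± 0.33 (adjusted p = 0.024 by limma). It stood at 159 and 158 CPM at E16 and at 333, 187, 94.3 and 250.1 CPM at P1 in the cells that met the rule, and at 99.1, 102 and 114 CPM and 854, 529, 452 and 728 CPM in the other non-hair cells of the 2 ages. Ap3s1, an adaptor subunit of vesicle transport, changed by -2.01 ± 0.35 (adjusted p = 0.029 by limma), from 986 and 491 CPM to 244, 141, 138 and 269.9 CPM in the cells that met the rule. All 3 calls rest on 2 E16 libraries and were lost when E16 replicate 2 or P1 replicate 3 was left out (0 larger and 0 smaller), where the changes were -2.04 and -1.94 in log2 for Itm2a, -1.57 and -1.95 for Ap3s1 and -1.33 and -1.46 for Manf. Without E16 replicate 3 the counts were 108 larger and 23 smaller. Leaving out either E16 library leaves 1 in that arm, which is assumed to vary like the P1 libraries. Without P1 replicate 4 the counts were 0 and 5, and without P1 replicate 2 they were 1 and 2. Ap3s1 and Manf lost their calls without P1 replicate 2, with changes of -1.98 and -1.57. With Pmch of at least 2.5 all 3 calls were lost. The changes were then -1.96 for Itm2a, -0.65 for Ap3s1 and -1.62 for Manf (limma adjusted p = 0.078, 0.7 and 0.096). On means of the deposited ln values the changes of Itm2a and Ap3s1 were -0.96 and -1.15 in log2 (limma adjusted p = 0.13 and 0.067). With cells thinned to 1500 UMIs the change of Ap3s1 was -3.44 and no gene passed in either direction. Of the 25 genes named at P1, none passed this test, the smallest adjusted p being 0.096 for Tectb (limma). On simulated data the test found only 2% of changes of 1 in log2 and 30% of changes of 2. A gene that did not pass is thus not shown to be unchanged between the ages.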

How the data were processed

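Single-cell libraries of P1 and E16 cochlear ducts were analysed. The authors counted UMIs with Cell Ranger 2.1.1 (mm10) and filtered and normalised cells with Seurat 2.0, and the deposited values are natural logarithms (ln) of 1 plus 10000 times a gene's share of a cell's UMIs, per the submitters' processing notes and the values. Whole UMIs were recovered within 2% for 100% of the values. Cells filtered out by the authors were not analysed here.

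Each cell's values were turned back into CPM and averaged per group and library (at least 5 cells), so that the library is the replicate. Groups were compared with limma 3.58.1 (R 4.3.3) on log2(CPM + 10), with trended variances and the library as a block, leaving out genes whose mean was under 10 CPM, and p-values were adjusted by Benjamini-Hochberg (threshold 0.05). A fold change on this scale understates that of low genes. The same-library profiles came from 1 collection, so the library pairs them. How far they deviated together varied, with correlations of 0.0932 to 0.623. The lowest were those of replicates 2 and 3 against Claudius-like and Deiters-like cells (0.0932 to 0.137). The age comparison used the differences within each library of 4 P1 and 2 E16 libraries, with no block.

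Named genes passed the test with 1 sign in all 4 libraries and a mean of at least 50 CPM in the higher group, and were the 15 largest and 10 smallest log2 differences, apart from the genes of the rule and mitochondrial, ribosomal, haemoglobin and Gm-numbered genes. Genes of the described lists are named beside these. The members of the group and the lists were chosen with earlier results of these data known. Doublets were called with Scrublet in scanpy 1.11.5 and kept, with their removal as an alternative. Gene positions are from GENCODE (GRCm38) and promoters from RefSeq. The scripts were tested on simulated data.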

Additional observations from a re-analysis of the deposited data

Results flagged for a closer look

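Among 64 named genes, the 4 libraries of Hensen's cells were searched for 1 library far from the other 3, and 5 were found. Where libraries vary alike, chance alone flags about 1 in 20 groups, or 3.2 of 64. The profiles average 42, 5, 13 and 58 cells, so 3.2 is no chance rate for them and nothing is read from the count. Replicate 1 was far above the others in Pcdh17 (168.6 CPM). It also stood above them in 4930523C07Rik (25.25 CPM) and Rab3b (21.43 CPM), both at 0 in replicates 2 to 4. These values are near the floor, as 1 UMI over the Hensen's cells of replicate 2 is 23.5 CPM. The 3 Hensen's cells that reached the Hes5 limit were all in replicate 1, and their part was not tested. Replicate 2, with 5 cells, was far below the others in Fbxo2 (104.8 CPM) and far above them in Tecta (1728 CPM).

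The difference between the cells that met the rule and the other non-hair cells changed between E16 and P1 in 3 genes by limma, namely Itm2a (P1 minus E16 -2.12 in log2), Ap3s1 (-2.01) and Manf (-1.51). Each call was lost without E16 replicate 2, where the changes were -2.04, -1.57 and -1.33. That leaves 1 E16 library, whose spread is assumed to be that of the P1 libraries.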

How the results depend on the processing

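No named gene changed sign under any alternative, but the balance of calls turned. Against other non-hair cells it went from 385 higher and 565 lower to 676 and 394 on means of the deposited ln values and the other way to 264 and 1926 with no filter, and against Claudius-like cells from 194 and 203 to 92 and 68 with a pseudocount of 1. Against Deiters-like cells it went from 427 and 621 to 498 and 490 on means of the ln values. Of the 25 genes named in each comparison, 24, 11 and 24 kept their call under every alternative run for them against other non-hair, Claudius-like and Deiters-like cells (Fgfr3 was not tested where Fgfr3 chose the Deiters-like cells), and the others lost it when cells were thinned to 1500 UMIs and under no other setting. Counts of genes, given as higher and lower in Hensen's cells, moved more. Against other non-hair cells (385 and 565), a pseudocount of 1 gave 236 and 248, thinning 111 and 329, no filter on low values 1926 lower, a mean of at least 50 CPM 260 lower, and means of the deposited ln values 676 higher (63.2% of calls against 40.5%). Against Claudius-like cells (194 and 203), a pseudocount of 1 gave 92 and 68, no filter 61 and 44, and thinning 20 and 10. Against Deiters-like cells (427 and 621), a pseudocount of 1 gave 279 and 347, no filter 255 and 336, a mean of at least 50 CPM 282 and 338, and thinning 102 and 157. Leaving out 1 library gave 233 to 441 and 337 to 593, 122 to 155 and 121 to 173, and 284 to 428 and 409 to 561 in the 3 comparisons. The cause of these moves was not tested.

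Without the library block, which pairs profiles of 1 collection, the counts were 209 and 349, 104 and 113, and 242 and 357. Between ages the replicate numbers name separate collections and were not taken as pairs. The correlations of 0.0185 and -0.00849 cannot settle this, as the deviations of only 2 E16 libraries from their mean mirror each other. The replicate block gave 1 larger and 17 smaller at P1.

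For the change with age (0 larger and 3 smaller), the larger counts were 2 with ln values, 1 with Pmch of at least 2.5, 2 with at least 2 UMIs of Pmch and Fst, 1 with Fst of at least 1.5, 1 without Scrublet calls and 1 with deeper reference cells. The smaller counts were 0 with a pseudocount of 1, no filter, a mean of at least 50 CPM or thinning, 6 with a pseudocount of 30, 10 with ln values, 1 with Pmch of at least 2.5 and 5 without Scrublet calls. Leaving out 1 library gave 0 to 108 and 0 to 23. The counts of 108 and 23 are those without E16 replicate 3, whose arm then holds 1 library, so the spread comes from the P1 libraries alone. E16 replicate 1 had too few cells to enter, so leaving it out was not run.

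Of settings chosen after seeing the data, reference cells at least as deep as the median Hensen's cell gave 109 and 97 against Claudius-like and 269 and 294 against Deiters-like cells. Libraries weighted by their UMIs gave 652 higher against other non-hair cells, 388 and 474 against Claudius-like and 641 higher against Deiters-like cells. With 5 to 58 Hensen's cells per library, 1 UMI over the Hensen's cells of a library is 2.51 to 23.5 CPM.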
